A study of Mus musculus with 23 samples.

Results

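The genes described here are 8 cardiac ion channel and gap junction genes of the mouse, taken by name from the 55487 genes quantified in each heart. Hcn2 and Hcn4 encode pacemaker channels, Cacna1g and Cacna1h encode the pores of T-type calcium channels, Gja1, Gja5 and Gjc1 encode connexins, and Scn4b encodes an auxiliary beta subunit of the voltage-gated sodium channel. All 8 passed the filter on low counts that left 15732 genes for testing. The measurements are bulk sequencing of poly-A selected RNA from hearts of female wild-type C57BL/6J mice, an inbred strain, aged 10 weeks, and the cell type label reads "Various". In the LPS arm, mice received lipopolysaccharide, a bacterial cell wall component that activates innate immune signalling, at 2.5 mg/kg, and hearts were taken untreated at baseline (4 hearts), on day 1 (4 hearts) and on day 7 (4 hearts). In the ISO arm, mice received isoproterenol, an agonist of beta-adrenergic receptors, at 300 mg/kg, and hearts were taken untreated at baseline (4 hearts), on day 1 (3 hearts) and on day 7 (4 hearts). Each arm has its own untreated baseline group, and the series compares each agent and time with that baseline. Libraries held 20910394 to 30368985 reads assigned to genes, and the deepest counts among the 8 genes belonged to Gja1, at 2884 to 11150 reads per library, while Gja5 had 31 to 174.

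Pacemaker channels of the HCN family open when the membrane becomes negative and pass an inward current that drives slow depolarisation between beats, and cyclic AMP speeds their opening. T-type calcium channels open at negative voltages and add to the same phase in sinoatrial and atrioventricular nodal cells. Connexins assemble into gap junctions that carry current from cell to cell: Gja1 serves the working myocardium, Gja5 serves the atria, the fast conduction fibres and arterial endothelium, and Gjc1 serves nodal tissue and vascular smooth muscle. The sodium channel starts the action potential in working myocardium, and Scn4b tunes its gating. Some of these genes are known mainly from rare conduction cells and others from all working myocytes, and a bulk library averages over both.

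The tissue label was checked against markers. Some atrial markers were near 0. Myl7, the atrial myosin light chain, stood at 0.00 to 0.577 CPM (reads scaled to library size by TMM) in 22 of 23 libraries. Bmp10 had at most 2 reads in any group of libraries, and Isl1, a sinoatrial marker, had at most 1. Other listed atrial markers were not near 0. The list of 10 summed to 37.7 to 39.5 CPM at LPS baseline and 34.6 to 38.2 CPM at ISO baseline. The exception for Myl7 was ISO day 1 replicate 3, at 9.58 CPM. That library also had Myl4 at 12.7 CPM, against 0.750 to 2.27 CPM in the others, and Sln at 1.62 CPM. The ISO day 1 log2 changes of the 8 genes are therefore given with and without it, as are some differences between the agents. Shares, marker sums and related gene lists for ISO day 1 include it. LPS day 1 libraries formed 2 pairs: the chi-square per degree of freedom between libraries was 12.7 for replicates 1 and 2 and 10.2 for replicates 3 and 4, against 29.3 to 43.5 for the pairs across. For some results, values without a pair are also given.

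On day 1, both agents were followed by lower transcripts of pacemaker and T-type channels, and the changes of Gja1 and Gja5 differed between the agents. After LPS, 7 of the 8 genes were lower and 1 was higher than at LPS baseline, with a median log2 change of -1.44. Over all genes tested, 66.2% were called in that comparison, 33% lower and 33.2% higher, and the median change was 0.00. After ISO, 6 of the 8 genes were lower and 0 were higher than at ISO baseline, with a median log2 change of -1.06. Over all genes tested, 65.7% were called in that comparison, 32.8% lower and 32.9% higher, and the median change was -0.01. A gene is called when the Benjamini-Hochberg adjusted p of edgeR's quasi-likelihood test over all tested genes is under 0.05. Calls were therefore common on day 1 among all genes.

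**Figure D1:**
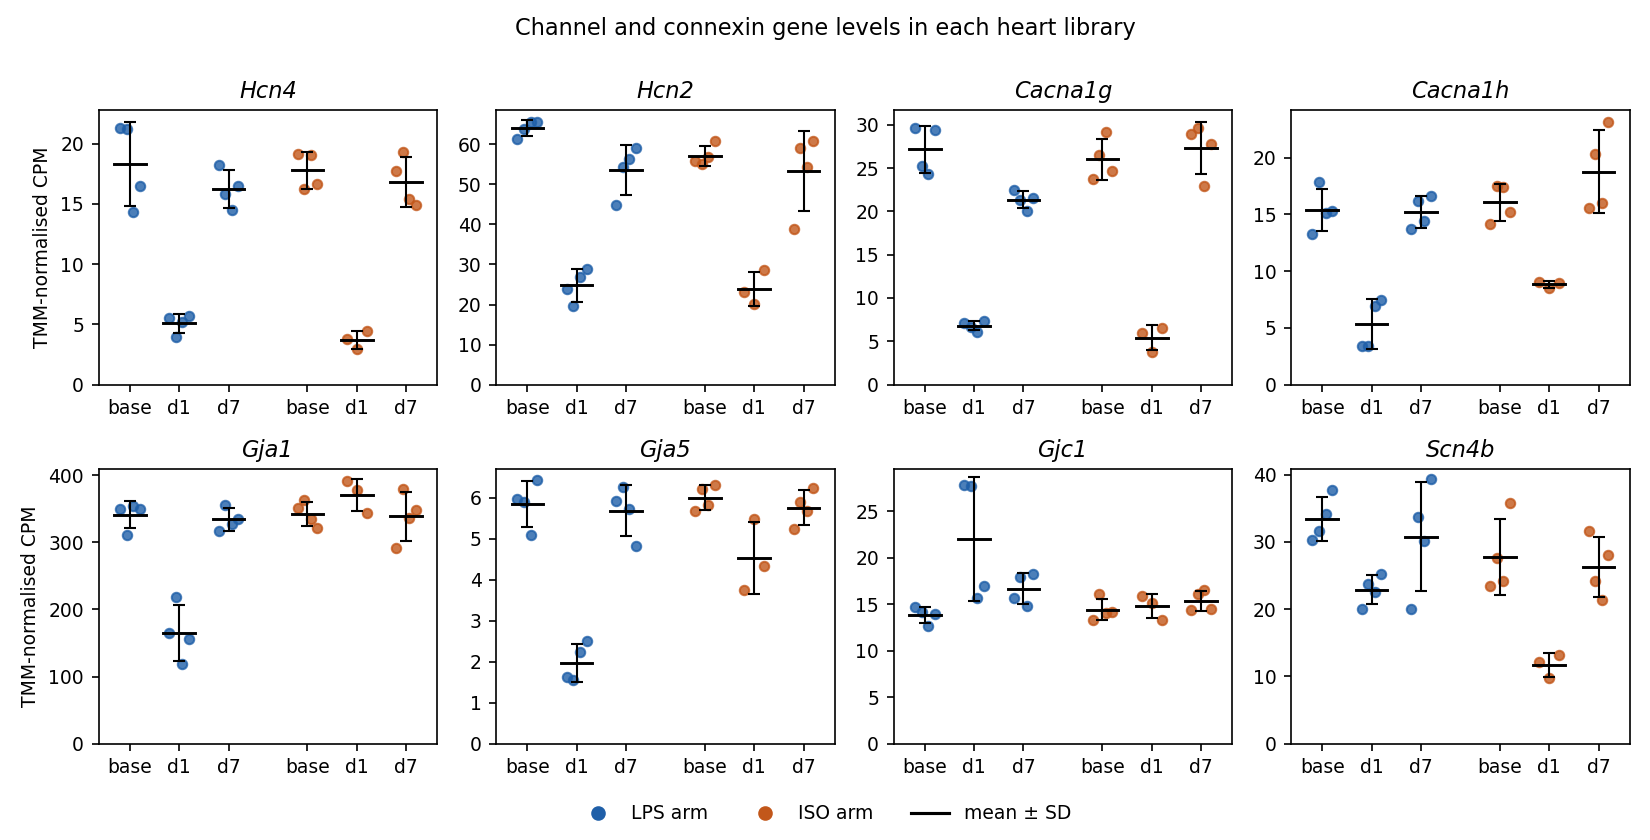
Levels of the 8 genes in each heart library. The vertical axis is TMM-normalised CPM from 0, the horizontal axis gives baseline (base), day 1 (d1) and day 7 (d7), blue points are the LPS arm, orange points are the ISO arm, and bars are mean ± SD. All Hcn4, Hcn2, Cacna1g and Cacna1h libraries of day 1 lie below the baseline libraries of their arm, while Gja1 lies below its baseline in the LPS arm alone.

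Hcn4 encodes the main pacemaker channel of the mouse sinoatrial node, and lies on chromosome 9 (58823412 to 58863175, plus strand, GRCm38). It stood at 5.54, 3.94, 5.17 and 5.71 CPM in LPS day 1 hearts, against 21.3, 21.2, 14.3 and 16.5 CPM in LPS baseline hearts. In ISO day 1 hearts it stood at 3.80, 2.93 and 4.42 CPM, against 19.2, 16.2, 19.0 and 16.6 CPM in ISO baseline hearts. Every day 1 library was lower than every baseline library of its arm. The log2 change was -1.84 (SE 0.14, adjusted p = 1.16e-10 by edgeR) after LPS and -2.27 (SE 0.16, adjusted p = 5.01e-11) after ISO.

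Hcn2, the other HCN gene among the 8, is expressed in both nodal and working myocytes and lies on chromosome 10 (79716634 to 79736108, plus strand). LPS day 1 hearts held 23.8, 19.5, 27.0 and 28.8 CPM, against 61.4, 63.9, 65.7 and 65.6 CPM in LPS baseline hearts. ISO day 1 hearts held 23.2, 20.2 and 28.5 CPM, against 55.9, 55.2, 56.8 and 60.8 CPM in ISO baseline hearts. Again the groups did not overlap in either arm. Log2 changes were -1.37 (SE 0.13, adjusted p = 2.77e-09 by edgeR) after LPS and -1.26 (SE 0.14, adjusted p = 5.65e-08) after ISO. In TPM (which divides by transcript length and so allows genes to be set side by side), Hcn4 made up 9.77% ± 0.834 of the summed Hcn2 and Hcn4 level in LPS day 1 hearts and 13.2% ± 2.44 in LPS baseline hearts (SD, n = 4 each). Its share was 7.30% ± 0.360 in ISO day 1 hearts (SD, n = 3) and 13.4% ± 1.15 in ISO baseline hearts (SD, n = 4), and the ISO groups did not overlap.

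The start regions of both HCN genes are shown because each gene was lower on day 1 in both arms. Each line gives 250 bases before and 50 bases after the RefSeq gene start (GRCm38.p6, plus strand), with matches to the GC box GGGCGG or its reverse complement in capitals.
Hcn4, chr9:58822699-58822998: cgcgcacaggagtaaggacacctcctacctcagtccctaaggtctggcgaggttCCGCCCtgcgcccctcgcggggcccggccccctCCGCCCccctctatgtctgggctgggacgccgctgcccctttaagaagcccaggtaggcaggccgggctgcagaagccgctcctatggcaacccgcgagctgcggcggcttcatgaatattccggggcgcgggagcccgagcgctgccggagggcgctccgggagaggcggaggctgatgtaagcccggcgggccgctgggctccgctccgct
Hcn2, chr10:79716384-79716683: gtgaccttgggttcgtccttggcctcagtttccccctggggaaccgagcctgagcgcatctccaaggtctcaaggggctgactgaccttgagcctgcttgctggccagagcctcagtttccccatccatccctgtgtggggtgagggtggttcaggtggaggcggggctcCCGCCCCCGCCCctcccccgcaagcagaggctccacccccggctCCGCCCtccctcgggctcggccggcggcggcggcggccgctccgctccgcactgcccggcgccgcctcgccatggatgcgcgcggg
The Hcn4 window lies upstream of the GENCODE M21 start given above. The windows had a GC content of 71.7% for Hcn4 and 72.3% for Hcn2, against a median of 52.7% over 32851 windows of the same length. GC boxes, which many housekeeping and tissue genes carry, were found 2 times in the Hcn4 window and 3 times in the Hcn2 window, and 35.7% of all windows hold at least 1. The T-box letters GGTGTNA and the NKX2-5 letters TNAAGTG, which name families of conduction system regulators, were searched on both strands and are held by 10.2% and 11.5% of all windows. Neither is in the window of the 5 genes that have one in the RefSeq table (Scn4b, Gja1, Gja5, Hcn2 and Hcn4).

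Cacna1g, which encodes the T-type pore that is prominent in the adult mouse node, lies on chromosome 11 (94408391 to 94474198, minus strand). It had 7.14, 6.63, 6.13 and 7.28 CPM in LPS day 1 hearts, against 29.6, 25.3, 24.4 and 29.3 CPM in LPS baseline hearts. It had 5.95, 3.74 and 6.58 CPM in ISO day 1 hearts, against 23.8, 26.5, 29.2 and 24.6 CPM in ISO baseline hearts. The highest day 1 library was at 7.28 CPM and the lowest baseline library at 23.8 CPM, so no groups came near each other. The log2 changes, -1.99 (SE 0.12, adjusted p = 2.25e-12 by edgeR) after LPS and -2.27 (SE 0.14, adjusted p = 3.40e-12) after ISO, were the lowest of the 8 genes in the LPS arm and level with Hcn4 in the ISO arm.

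Cacna1h, the other T-type pore, lies on chromosome 17 (25374285 to 25433783, minus strand) and is known from fetal and stressed ventricular myocytes and from vascular smooth muscle. LPS day 1 libraries gave 3.39, 3.44, 6.95 and 7.49 CPM, against 13.3, 17.8, 15.1 and 15.3 CPM in LPS baseline libraries. ISO day 1 libraries gave 9.06, 8.51 and 8.91 CPM, against 14.2, 17.5, 17.4 and 15.2 CPM in ISO baseline libraries. In CPM no day 1 library reached its baseline, and the LPS day 1 values split by the library pairs named above. In TPM the ISO groups overlapped, at 1.06 to 1.79 on day 1 against 1.70 to 2.77 at baseline. The log2 change was -1.52 (SE 0.19, adjusted p = 2.71e-07 by edgeR) after LPS, and it was -1.09 without replicates 1 and 2 and -2.17 without replicates 3 and 4. After ISO it was -0.86 (SE 0.20, adjusted p = 0.000574).

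The balance between both T-type pores also shifted in the ISO arm. In TPM, Cacna1g made up 40.9% ± 8.94 of the summed Cacna1g and Cacna1h level in ISO day 1 hearts (SD, n = 3) and 72.1% ± 5.32 in ISO baseline hearts (SD, n = 4), without overlap. In the LPS arm it made up 56.4% ± 5.56 on day 1 and 69.9% ± 9.04 at baseline (SD, n = 4 each), and those groups overlapped. These shares rest on the effective lengths that the authors' quantification gave to each gene, and for the T-type genes those lengths varied widely between libraries, from 3709 to 8529 bases for Cacna1g and from 3087 to 8988 bases for Cacna1h. The effective length of Cacna1g averaged 6301 bases in ISO day 1 libraries, above every ISO baseline library, which averaged 4578 bases. By an exact two-sided permutation test p was 0.0571, as low as 3 against 4 libraries can reach, and the lowest adjusted p over the 32 tests of effective length on the 8 genes was 0.366. The Cacna1g changes in CPM do not use these lengths, and the T-type shares in TPM do.

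The day 1 changes of the connexin genes Gja1 and Gja5 separated the agents. Gja1, the connexin of ventricular working myocytes, lies on chromosome 10 (56377330 to 56402513, plus strand) and had the highest level of the 8 genes in every group. LPS day 1 hearts held 165, 219, 119 and 156 CPM, against 349.7, 311, 353 and 349.6 CPM in LPS baseline hearts. ISO day 1 hearts held 391, 377 and 344 CPM, against 350.4, 363, 334 and 322 CPM in ISO baseline hearts. The LPS groups were far apart and the ISO groups overlapped. The log2 change was -1.05 (SE 0.12, adjusted p = 4.09e-08 by edgeR) after LPS and 0.11 (95% interval -0.14 to 0.37, adjusted p = 0.425) after ISO. Without LPS day 1 replicates 1 and 2 the LPS change was -1.30, and over all settings tried it ran from -1.30 to -0.83.

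Gja5, a connexin of atrial myocytes, Purkinje fibres and arterial endothelium, lies on chromosome 3 (96904693 to 97077416, plus strand). It had 1.64, 1.54, 2.24 and 2.50 CPM in LPS day 1 hearts, against 5.97, 5.89, 5.09 and 6.45 CPM in LPS baseline hearts. In ISO day 1 hearts it had 3.75, 5.48 and 4.33 CPM, against 5.67, 6.21, 5.82 and 6.30 CPM in ISO baseline hearts. In CPM, day 1 libraries lay below baseline in both arms, widely after LPS and by little after ISO. In TPM the ISO groups overlapped, at 1.38 to 2.15 on day 1 against 2.12 to 2.60 at baseline. Log2 changes were -1.55 (SE 0.14, adjusted p = 2.15e-09 by edgeR) after LPS and -0.40 (SE 0.14, adjusted p = 0.0167) after ISO. The LPS day 1 values split by the library pairs. Without LPS day 1 replicates 1 and 2 the LPS change was -1.30, and over all settings tried it ran from -1.87 to -0.95. The ISO call was lost without ISO day 1 replicate 3 (-0.37, adjusted p = 0.0555) and without ISO day 1 replicate 1 (-0.28, adjusted p = 0.115). It was also lost on log2(TPM + 0.1) (-0.45, adjusted p = 0.0611 by limma). Gpr89 overlaps the annotated span of Gja5 on the other strand and had 8790 reads over all libraries against 3027 for Gja5. Since the strand setting of the counting is not given in the sources used here, reads from the overlap could not be assigned by strand.

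Gjc1, a connexin of nodal cells and smooth muscle, lies on chromosome 11 (102799579 to 102819700, minus strand) and was the single gene of the 8 that rose. LPS day 1 hearts held 27.8, 27.7, 15.6 and 16.96 CPM, against 14.7, 14.1, 12.6 and 13.9 CPM in LPS baseline hearts. ISO day 1 hearts held 15.9, 15.1 and 13.3 CPM, against 13.3, 16.0, 14.1 and 14.1 CPM in ISO baseline hearts. All LPS day 1 libraries were above all LPS baseline libraries, with replicates 1 and 2 far above and replicates 3 and 4 just above, and the ISO groups overlapped. The log2 change after LPS was 0.67 (SE 0.14, adjusted p = 0.000246 by edgeR). Without replicates 1 and 2 it was 0.24 (adjusted p = 0.0444), and without replicates 3 and 4 it was 1.00 (adjusted p = 5.64e-09). After ISO it was 0.04 (95% interval -0.28 to 0.36, adjusted p = 0.840).

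With Gja1 and Gja5 lower and Gjc1 higher, the make-up of the 3 connexins by TPM changed after LPS. Gjc1 made up 17.4% ± 3.05 of their summed level in LPS day 1 hearts and 5.98% ± 0.396 in LPS baseline hearts (SD, n = 4 each), with the lowest day 1 library at 14.4% and the highest baseline library at 6.43%. In ISO day 1 hearts its share was 6.14% ± 0.387 (SD, n = 3), and in ISO baseline hearts 6.07% ± 0.432 (SD, n = 4). Gja5 made up 0.967% ± 0.412 of the sum in LPS day 1 hearts and 1.54% ± 0.0780 in LPS baseline hearts (SD, n = 4 each), so Gja1 remained the bulk of connexin transcripts throughout.

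The start regions of the pair of connexin genes that fell after LPS are shown beside each other, over the same 250 bases before and 50 bases after the RefSeq start (GRCm38.p6, plus strand). Capitals mark the cAMP response element core TGACG, the GC box GGGCGG, the GATA letters AGATAA and the AP-1 letters TGANTCA, or their reverse complements.
Gja1, chr10:56377050-56377349: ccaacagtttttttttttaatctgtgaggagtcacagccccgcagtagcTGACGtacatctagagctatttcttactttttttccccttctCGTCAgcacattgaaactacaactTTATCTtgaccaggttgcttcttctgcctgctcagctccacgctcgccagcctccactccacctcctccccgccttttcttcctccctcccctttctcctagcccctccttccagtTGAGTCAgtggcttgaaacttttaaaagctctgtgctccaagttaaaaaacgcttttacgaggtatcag
Gja5, chr3:97032152-97032451: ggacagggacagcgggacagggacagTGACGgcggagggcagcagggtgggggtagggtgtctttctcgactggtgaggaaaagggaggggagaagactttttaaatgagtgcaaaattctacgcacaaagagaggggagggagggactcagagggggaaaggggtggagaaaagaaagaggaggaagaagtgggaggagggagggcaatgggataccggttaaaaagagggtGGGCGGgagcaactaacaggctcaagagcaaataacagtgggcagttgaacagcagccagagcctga
The Gja1 window holds TGACG 2 times, once on each strand, together with a GATA match and an AP-1 match at position -19 from the start, where the pattern TGANTCA is met on both strands. The Gja5 window holds TGACG and GGGCGG. Of all 32851 windows, 20.8% hold TGACG, 11.2% hold AGATAA and 7.81% hold TGANTCA. The Gja5 window lies inside the GENCODE M21 span given above, which starts farther upstream. Matches of this kind describe the letters of the window.

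Scn4b, whose product also serves as the source of the resurgent sodium current in neurons, lies on chromosome 9 (45138395 to 45154152, plus strand). LPS day 1 hearts held 20.1, 23.7, 22.5 and 25.3 CPM, against 30.3, 31.6, 34.1 and 37.8 CPM in LPS baseline hearts. ISO day 1 hearts held 12.1, 9.77 and 13.2 CPM, against 23.4, 27.6, 24.2 and 35.7 CPM in ISO baseline hearts. No day 1 library reached its baseline in either arm, and all ISO day 1 libraries lay below all LPS day 1 libraries. The log2 change was -0.55 (SE 0.16, adjusted p = 0.00513 by edgeR) after LPS and -1.25 (SE 0.19, adjusted p = 4.08e-06) after ISO.

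**Figure D2:**
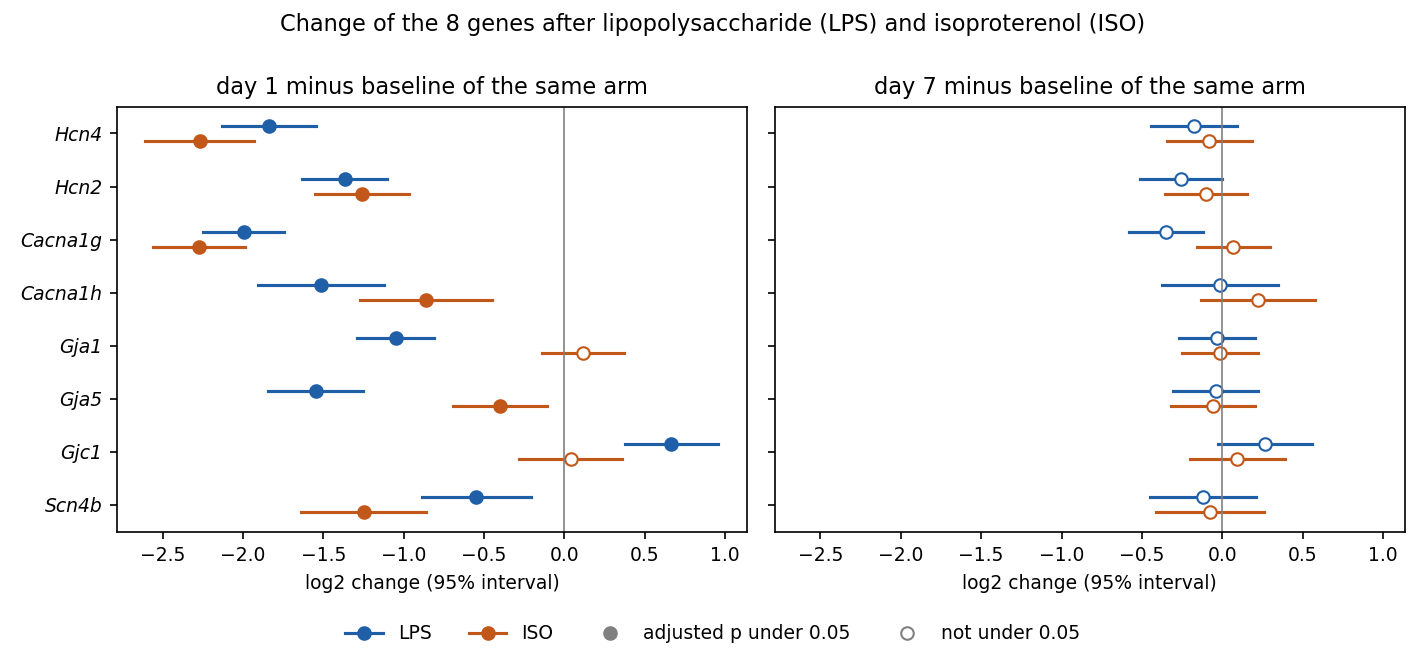
Log2 change of the 8 genes on day 1 (left) and day 7 (right) against the baseline of the same arm. Points are edgeR estimates, lines are 95% intervals, blue is LPS, orange is ISO, and filled points have an adjusted p under 0.05. On day 1 the LPS points range from -1.99 to 0.67 and the ISO points from -2.27 to 0.11, and on day 7 no point is filled.

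Leaving out ISO day 1 replicate 3, the library with raised Myl7, Myl4 and Sln, the ISO day 1 log2 changes were -2.41 for Hcn4, -1.40 for Hcn2, -2.44 for Cacna1g, -0.87 for Cacna1h and -1.35 for Scn4b. All 5 stayed called (edgeR, adjusted p at most 0.00260). Gja1 was then at 0.17 and Gjc1 at 0.11, and both stayed uncalled.

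The difference between the day 1 effects was tested as an interaction, the LPS change minus the ISO change. It passed the test for 4 of the 8 genes, beside 37.6% of all genes tested. Gja1 (-1.16, SE 0.17, adjusted p = 9.06e-06 by edgeR) and Gja5 (-1.15, SE 0.20, adjusted p = 8.74e-05) had the lower change after LPS. Gja1 was not called after ISO. Scn4b (0.70, SE 0.25, adjusted p = 0.0276) fell further after ISO, and Gjc1 (0.63, SE 0.21, adjusted p = 0.0209) had the higher change after LPS. The Gja1 and Gja5 differences held without either pair of LPS day 1 libraries and without ISO day 1 replicate 3.

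The other 2 of these 4 differences rested on single libraries. Without LPS day 1 replicates 1 and 2 the Gjc1 difference was 0.20 (adjusted p = 0.260), without LPS day 1 replicate 1 it was 0.49 (adjusted p = 0.0555), and without ISO day 1 replicate 3 it was 0.56 (adjusted p = 0.0578). The Scn4b difference was 0.64 (adjusted p = 0.0774) without LPS day 1 replicates 3 and 4, and it also missed the threshold when ISO baseline replicate 4, ISO day 1 replicate 2, LPS baseline replicate 1 or LPS day 1 replicate 4 was left out, at 0.55, 0.58, 0.66 and 0.65 in that order.

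For the pacemaker and T-type genes the difference between agents did not pass edgeR's test, and the intervals say how large it could be. It was -0.11 for Hcn2 (95% interval -0.50 to 0.28, adjusted p = 0.681), 0.43 for Hcn4 (-0.01 to 0.88, adjusted p = 0.122) and 0.28 for Cacna1g (-0.10 to 0.66, adjusted p = 0.243). Without ISO day 1 replicate 3, Cacna1g stood at 0.44 (adjusted p = 0.0668) and Hcn4 at 0.58 (adjusted p = 0.0561), and with both baselines pooled Hcn4 passed the threshold (0.48, adjusted p = 0.0219).

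The Cacna1h difference lay near the threshold and moved with the LPS day 1 pairs. It was -0.65 (-1.22 to -0.09, adjusted p = 0.0634 by edgeR), -0.22 (adjusted p = 0.409) without LPS day 1 replicates 1 and 2, and -1.31 (adjusted p = 6.02e-05) without LPS day 1 replicates 3 and 4. It also passed the threshold without LPS day 1 replicate 3 (-0.80, adjusted p = 0.0256) and without LPS day 1 replicate 4 (-0.87, adjusted p = 0.0107). DESeq2 (adjusted p = 0.0444), limma-voom (0.0395), edgeR with no filter (0.0281) and edgeR with pooled baselines (0.00543) also called it.

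**Figure D3:**
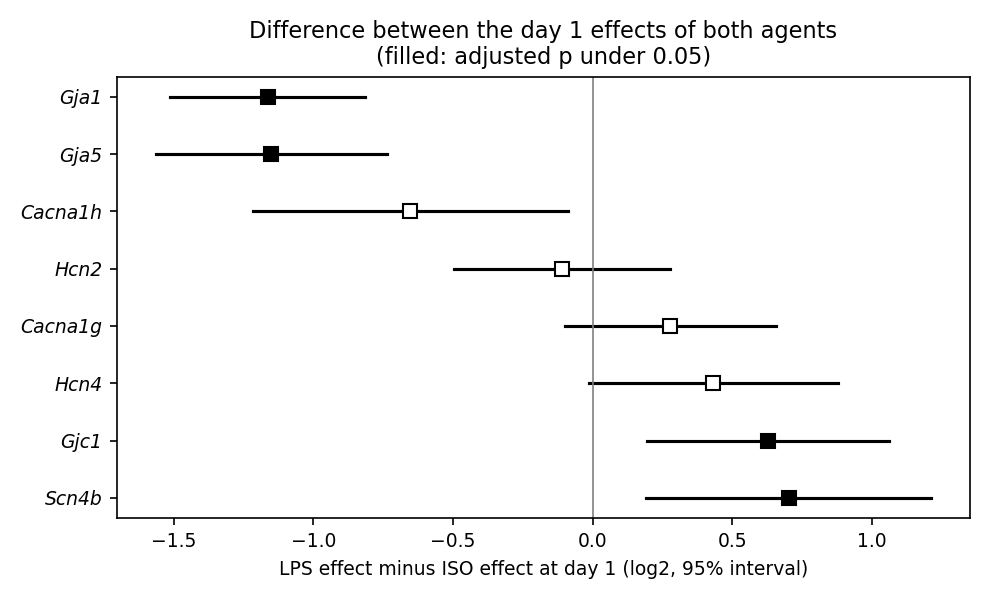
Difference between the agents on day 1 for each of the 8 genes. The horizontal axis is the LPS change minus the ISO change on the log2 scale, lines are 95% intervals and filled squares have an adjusted p under 0.05. Gja1 and Gja5 lie near -1.16, Gjc1 and Scn4b lie at 0.63 and 0.70, and the other 4 squares are open.

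By day 7 the 8 genes stood near baseline. None was called in either arm by edgeR, beside 9.1% of all genes tested in the LPS arm (5.96% higher and 3.13% lower) and 0.00636% in the ISO arm (1 gene). At an unadjusted p under 0.05 there were 2 of 8 in the LPS arm and 0 of 8 in the ISO arm. DESeq2 called 1 of 8 in the LPS arm and 0 of 8 in the ISO arm.

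The gene nearest to the threshold in the LPS arm was Cacna1g, at 22.5, 21.3, 20.03 and 21.5 CPM in LPS day 7 hearts, against 29.6, 25.3, 24.4 and 29.3 CPM in LPS baseline hearts. Its libraries did not overlap, and the log2 change was -0.35 (SE 0.11, adjusted p = 0.0522 by edgeR). DESeq2 gave an adjusted p of 0.0212. On log2(TPM + 0.1) the change was 0.10, with the opposite sign, but the median change over all genes tested was 0.196 on that scale. Hcn2 had 44.8, 54.4, 56.2 and 59.2 CPM in LPS day 7 hearts, all below the LPS baseline values given above, with a log2 change of -0.26 (SE 0.12, adjusted p = 0.213). Gjc1 had 15.6, 17.9, 14.8 and 18.2 CPM in LPS day 7 hearts, all above its LPS baseline values, with a log2 change of 0.26 (SE 0.14, adjusted p = 0.276).

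The remaining day 7 groups overlapped their baselines. Hcn4 had 18.2, 15.8, 14.5 and 16.5 CPM in LPS day 7 hearts and 17.7, 19.3, 15.4 and 14.9 CPM in ISO day 7 hearts. Gja1 had 317, 356, 328 and 335 CPM in LPS day 7 hearts and 291, 379, 337 and 347 CPM in ISO day 7 hearts. In TPM, Gja1 in LPS day 7 hearts (151 to 167) lay above LPS baseline (126 to 148) without overlap. The median change over all genes tested on log2(TPM + 0.1) was 0.196 in that comparison, and Gja1 reached at most 0.181 in any setting. That Gja1 change was called in 0 of 24 settings. In the ISO arm the day 7 log2 changes of the 8 genes ran from -0.10 for Hcn2 to 0.22 for Cacna1h. The interaction between agents on day 7 was called for 0 of the 8 genes, beside 0.458% of all genes tested, and 1 of 8 had an unadjusted p under 0.05.

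Day 7 was also compared directly with day 1 in each arm. In the LPS arm, 7 genes were higher and 1 lower on day 7 than on day 1, beside 66.4% called over all genes tested (33.9% higher and 32.5% lower). The log2 differences were 1.65 for Cacna1g, 1.66 for Hcn4, 1.51 for Gja5, 1.501 for Cacna1h, 1.11 for Hcn2, 1.02 for Gja1 and 0.43 for Scn4b, with adjusted p from edgeR of at most 0.0246. Gjc1 was lower by this comparison (-0.40, adjusted p = 0.0148), a call that was lost without LPS day 1 replicates 1 and 2 (0.0276, adjusted p = 0.83) and without LPS day 1 replicate 1 alone (-0.27, adjusted p = 0.0959). The Scn4b call was lost without replicates 1 and 2 of LPS day 1 (0.36, adjusted p = 0.133). It was also lost without LPS day 1 replicate 1, LPS day 7 replicate 2 or LPS day 7 replicate 4.

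In the ISO arm, 6 genes were higher on day 7 than on day 1 and 0 were lower, beside 65.1% called over all genes tested (33.2% higher and 31.9% lower). Cacna1g differed by 2.34, Hcn4 by 2.19, Scn4b by 1.17, Hcn2 by 1.16 and Cacna1h by 1.09 on the log2 scale, each with an adjusted p of at most 4.46e-05 by edgeR. Gja5 differed by 0.34 (adjusted p = 0.0372), a call that was lost when ISO day 1 replicate 1, ISO day 1 replicate 3, ISO day 7 replicate 2 or ISO day 7 replicate 4 was left out. Day 1 values enter the comparisons with baseline and with day 7, so these results share libraries.

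The untreated groups of both arms were compared as well, and 0 of the 8 genes were called, beside 1.21% of all genes tested (0.477% higher and 0.737% lower). None of the 8 had an unadjusted p under 0.05 in that comparison, and DESeq2 also called 0. The log2 difference between LPS baseline and ISO baseline ran from -0.06 for Cacna1h to 0.27 for Scn4b.

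Ordered by TPM, the genes changed places on day 1. At LPS baseline the order was Gja1 (139 TPM), Hcn2 (21.3), Gjc1 (8.97), Scn4b (7.48), Cacna1g (5.45), Hcn4 (3.22), Gja5 (2.32) and Cacna1h (2.28), where the last pair overlapped. On LPS day 1 Gjc1 stood second at 13.8 TPM, above Hcn2 at 8.28 TPM without overlap, and Cacna1g (1.31), Cacna1h (1.05), Hcn4 (0.893) and Gja5 (0.734) ended the order, each overlapping its neighbour. On ISO day 1 Gjc1 also stood second, at 9.97 TPM against 8.13 TPM for Hcn2, and Hcn4 was last at 0.641 TPM. On day 7 Hcn2 was again second in both arms, at 20.8 TPM after LPS and 18.7 TPM after ISO.

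Markers of the cells that could carry these transcripts also moved on day 1, and their part in the results was not tested. Summed CPM of 11 cardiomyocyte markers ranged from 50948 to 59739 in LPS day 1 hearts, against 75829 to 81712 at LPS baseline, and from 60450 to 80173 in ISO day 1 hearts, against 82451 to 88326 at ISO baseline. Of those 11 markers, 7 were lower and 0 higher after LPS, and 7 lower and 1 higher after ISO. The day 1 marker counts here and below stand beside shares of all genes tested. Those were 33% lower and 33.2% higher after LPS, and 32.8% lower and 32.9% higher after ISO. In bulk tissue, fewer cells of a type and less RNA per cell cannot be told apart.

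The summed level of conduction system markers was lower too. It was 182 to 218 CPM in LPS day 1 hearts, against 380 to 413 CPM at LPS baseline, and 234 to 239 CPM in ISO day 1 hearts, against 366 to 397 CPM at ISO baseline. Of 12 listed genes 10 could be tested, and 5 were lower and 1 higher after LPS, while 8 were lower and 1 higher after ISO. Of all genes tested, 66.2% were called after LPS and 65.7% after ISO, so the LPS count is near that share. The marker that rose in both arms was Tbx3, a transcription factor of nodal tissue. The sum is carried by genes that working or other cells also express, among them Smoc2, Igfbp5, Kcnj3 and Kcnj5, while Isl1 and Vsnl1 had at most 2 reads in any group.

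Among vascular lists, the arterial endothelial sum overlapped its baseline after LPS and lay above it after ISO. Arterial endothelial markers, which share that cell type with Gja5, summed to 166 to 193 CPM in LPS day 1 hearts, against 171 to 189 CPM at LPS baseline, and to 252 to 282 CPM in ISO day 1 hearts, against 165 to 175 CPM at ISO baseline. Of the 11 listed, 6 were lower and 3 higher after LPS, and 3 were lower and 3 higher after ISO. Pericyte and smooth muscle markers, which share that cell type with Gjc1, summed on average to 744 CPM in LPS day 1 hearts, against 1401 CPM at LPS baseline, and 8 of 10 were lower after LPS. All 7 Schwann and nerve markers were lower in both arms. Leukocyte markers summed to 52.8 to 76.3 CPM in LPS day 1 hearts and 197 to 245 CPM in LPS day 7 hearts, against 109 to 129 CPM at LPS baseline, with 1 of 9 higher and 2 lower on day 1 and 8 higher on day 7. Fibroblast markers summed to 670 to 815 CPM in LPS day 1 hearts and 955 to 993 CPM in LPS day 7 hearts, against 682 to 847 CPM at LPS baseline, with 1 of 9 called higher on day 7. The day 7 marker counts stand beside 5.96% higher and 3.13% lower over all genes tested on LPS day 7.

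Related genes were taken from 6 lists. Their day 1 counts stand beside the same shares of all genes tested, 33% lower and 33.2% higher after LPS, and 32.8% lower and 32.9% higher after ISO. Other HCN and T-type genes and HCN partners did not move as a block: 6 of 9 could be tested, and after LPS 2 were higher and 2 lower, while after ISO 1 was higher and 1 lower. Cav3, which encodes the caveolin of muscle, was higher in both arms, with log2 changes of 1.38 after LPS and 1.86 after ISO. Mrvi1, which encodes a substrate of cyclic GMP-dependent kinase, was lower in both, at -1.47 and -1.38.

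Among other sodium channel subunits, 9 of 12 could be tested, with 1 higher and 3 lower after LPS and 2 higher and 4 lower after ISO. Scn4a, the skeletal muscle pore, fell by 1.29 on the log2 scale after LPS (adjusted p = 3.25e-05 by edgeR) and by 1.42 after ISO (adjusted p = 3.88e-05). Scn7a, a sodium-sensing channel of glia, fell by 0.92 in each arm.

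Other connexins and pannexins were mostly at too low a level to test, with 7 of 20 tested, of which 3 were higher and 3 lower after LPS and 0 higher and 2 lower after ISO. Gja3 was lower in both arms, at 7.34 ± 1.4 CPM in LPS day 1 hearts and 18.8 ± 1.1 CPM in LPS baseline hearts (SD, n = 4 each), and at 4.56 ± 0.35 CPM in ISO day 1 hearts (SD, n = 3) and 18.6 ± 0.55 CPM in ISO baseline hearts (SD, n = 4). Its log2 changes were -1.36 (adjusted p = 3.49e-11 by edgeR) and -2.02 (adjusted p = 9.23e-13), and it fell further after ISO (difference 0.66, adjusted p = 0.00109), the opposite order to Gja1 and Gja5. Gja4, an arterial endothelial connexin, rose by 0.62 after LPS (adjusted p = 9.56e-05) and stood at 0.23 after ISO (adjusted p = 0.127).

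L-type calcium channel subunits, the high-voltage counterparts of the T-type pores, had 11 of 14 tested, with 2 higher and 8 lower after LPS and 0 higher and 5 lower after ISO. Cacna1c, the main ventricular pore, was lower in both arms, with log2 changes of -0.71 after LPS and -0.95 after ISO. Cacna1s, the skeletal muscle pore, was at -0.70 and -1.02, also called in both. Cacnb2, the cardiac beta subunit, was lower after LPS alone, at 14.2 ± 4.0 CPM in LPS day 1 hearts and 64.2 ± 5.4 CPM in LPS baseline hearts (SD, n = 4 each), and the difference between agents was -2.13 (adjusted p = 4.90e-09 by edgeR). Cacng7, a gamma subunit, rose by 0.54 after LPS (adjusted p = 0.000221).

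Of the intercalated disc and channel anchoring genes, 24 of 25 could be tested, with 5 higher and 14 lower after LPS and 9 higher and 12 lower after ISO. Dsp, the desmosomal protein desmoplakin, fell by 0.93 after LPS and by 0.29 after ISO on the log2 scale, and Ctnnb1, beta-catenin, fell by 0.57 and 0.42. Vcl, vinculin, rose by 0.94 after ISO (adjusted p = 2.79e-11 by edgeR) and stood at 0.07 after LPS (adjusted p = 0.289). Xirp2, an actin-binding protein of the disc, rose by 1.49 after ISO (adjusted p = 5.64e-11) and stood at -0.21 after LPS (adjusted p = 0.0649).

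Transcription factors of the conduction system had 24 of 27 tested, with 7 higher and 10 lower after LPS and 5 higher and 10 lower after ISO. Tbx3, which represses working myocardial genes in nodes, rose by 0.63 after LPS (adjusted p = 6.52e-06 by edgeR) and by 1.53 after ISO (adjusted p = 1.78e-11). Hey1, a Notch target that marks arterial endothelium as well, fell by 3.16 after LPS (adjusted p = 1.10e-12) and stood at -0.17 after ISO (adjusted p = 0.364). Mef2c and Mef2a, muscle regulators, were lower in both arms, with Mef2c at -0.43 and -0.89 and Mef2a at -0.60 in each. On day 7, 0 genes of the 6 lists were called in the ISO arm, beside 0.00636% of all genes tested. In the LPS arm 1 sodium channel gene was lower, 1 L-type gene was higher and 2 lower, 2 disc genes were lower, and 2 transcription factors were higher. Over all genes tested, 9.1% were called on LPS day 7, 5.96% higher and 3.13% lower.

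**Figure D4:**
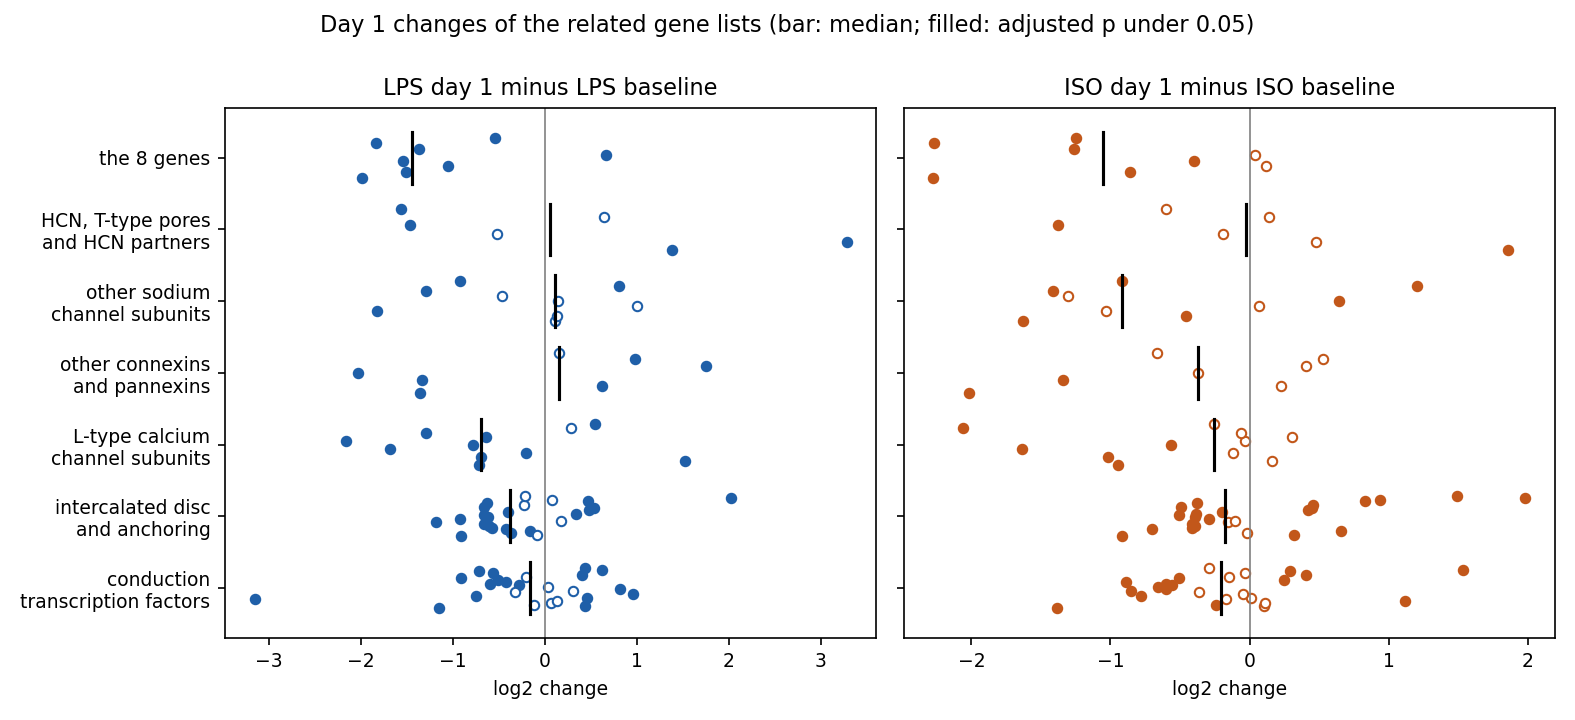
Day 1 log2 changes of the 8 genes and of 6 lists of related genes, after LPS (left) and ISO (right). Each point is a gene, filled where the adjusted p is under 0.05, and bars are list medians. The bar of the 8 genes lies at -1.44 after LPS and -1.06 after ISO, while the bars of L-type subunits lie at -0.70 and -0.26 and the median of all genes lies near 0.

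The genes whose group means were most like each member over the 6 groups were found by the root mean square difference of log2 CPM after centring, and the 3 nearest are given. The candidates were the tested genes that averaged at least 5 CPM over all libraries, 9798 for Gja5 and 9797 for each of the others. Hcn4 was nearest to Lonrf2 (0.03), Pde4a (0.04), a cyclic AMP phosphodiesterase, and Adamts7 (0.09). Cacna1g was nearest to Myh7b (0.07), a slow myosin heavy chain, then Adamts7 (0.09) and Pde4a (0.10), and Hcn4 came at rank 4 for Cacna1g (0.10), while Cacna1g came at rank 7 for Hcn4. Hcn2 was nearest to Mrpl39, Nr0b2 and Rassf3, Cacna1h to Adamts10, Myl9 and Dnm1, and Scn4b to Acsl6, Mreg and Sirt4. Gja1 was nearest to Lims1 (0.03), Pik3c2b and Creb1, Gja5 to Mus81 (0.03), Cenpa and Ppil1, and Gjc1 to Brat1 (0.03), Stambp and Tceanc2.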

How the data were processed

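Per the file headers, the authors deposited for each of the 23 libraries an estimated count of reads (expected counts), a TPM value and an effective length in bases per gene. Per the submitters' processing notes, bcl2fastq, DRAGEN, edgeR and limma were used with mm10. Nothing in the sources used here gives versions, the annotation release or strandedness. Counts were rounded for the tests, since 9.50% of all values were not whole.

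Names came from GENCODE M21, built on GRCm38 like mm10, which held 55227 of the 55487 identifiers, and unmatched identifiers held at most 0.00573% of a library's reads. Mitochondrially encoded genes took 22.3% to 29.3% of the reads. Groups came from the labels. Replicates were separate libraries, and no pair was as alike as sampling noise would make it (chi-square per degree of freedom 3.98 to 45.4). The labels do not say more of their independence than that, so p-values measure the spread between these libraries.

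Genes with low counts were removed with edgeR's filterByExpr (minimum count 10), and 15732 genes were fitted in 1 model of 6 group means with TMM scaling and edgeR's quasi-likelihood test (edgeR 4.0.16, R 4.3.3), in 9 comparisons, with Benjamini-Hochberg adjustment over all genes in each. The biological coefficient of variation was 11.0%. CPM values are TMM-normalised and were computed here from the counts. The test was tried on simulated data first. Alternatives used limma 3.58.1 and DESeq2 1.42.0, other scalings and filters, log2(TPM + 0.1) and log2(TPM + 1), effective length offsets, a replicate block and left-out libraries. The alternatives that leave out a pair of LPS day 1 libraries were chosen after seeing the data. Exact permutation tests used scipy 1.17.1 with Python 3.11.15, and figures used matplotlib 3.10.9. Arithmetic on effective lengths and motif searches used the deposited values and RefSeq windows as they stand.

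The 8 genes and all lists of related genes and markers were chosen with earlier results of these data known. The genes named besides them are up to 4 per list with the smallest adjusted p against the own baseline and 5 CPM or more in whichever group was higher, plus the 3 genes most like each of the 8. Some genes that this rule selects are counted in their lists and are not reported here by name.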

Additional observations from a re-analysis of the deposited data

Results flagged for a closer look

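In 40 checks of a group of 4 libraries for a library far from the rest, 2 met Dixon's criterion, and chance gives about 1 in 20 groups. Hcn2 in ISO day 7 replicate 1 stood at 12.5 TPM, with the other 3 libraries of that group between 20.5 and 21.2 TPM. Cacna1h in ISO baseline replicate 1 stood at 1.70 TPM, with the other 3 between 2.60 and 2.77 TPM. In CPM these libraries held 38.9 for Hcn2 and 14.2 for Cacna1h, the lowest of their groups.

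The day 1 effects of the agents differed by the interaction test for 4 genes. The LPS change minus the ISO change was -1.16 for Gja1, -1.15 for Gja5, 0.70 for Scn4b and 0.63 for Gjc1 on the log2 scale. What underlies these differences was not tested.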

How the results depend on the processing

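The day 1 falls of Hcn4, Hcn2, Cacna1g, Cacna1h and Scn4b were called in 23 of 23 settings after ISO and 26 of 26 after LPS, as were the LPS changes of Gja1, Gja5 and Gjc1 (26 of 26), while the ISO fall of Gja5 was called in 20 of 23. On LPS day 7 the count of the 8 genes called, 0 by edgeR, was 1 (Cacna1g, lower) with RLE size factors, DESeq2, limma-voom, a robust fit, no filter or pooled baselines, 1 (Gjc1, higher) with library totals, log2(TPM + 0.1) or log2(TPM + 1), and 3 (Cacna1g and Hcn2 lower, Gjc1 higher) with the compared groups fitted alone. Between the untreated groups it was 1 with the compared groups fitted alone. For the day 1 difference between agents, 4 by edgeR, it was 2 under either TPM scale, where Scn4b and Gjc1 were lost, 5 with DESeq2, limma-voom, no filter or the replicate block, where Cacna1h was gained, and 6 with pooled baselines, where Cacna1h and Hcn4 were gained, and on day 7 it was 1 with pooled baselines. Leaving out 1 library gave 5 to 6 calls for ISO day 1, 8 for LPS day 1, 0 to 1 for LPS day 7, 5 to 6 and 6 to 8 for day 7 against day 1 after ISO and LPS, and 3 to 5 for the day 1 difference. Without LPS day 1 replicates 1 and 2, the Gjc1 change from LPS day 7 minus LPS day 1 turned to 0.0276. The cause was not tested.

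Deviations of same-numbered libraries from their group means had r from -0.118 to 0.0820 in the ISO arm and from -0.0321 to 0.0511 in the LPS arm. Differently numbered libraries had r from -0.153 to 0.139 and from -0.0870 to 0.0971. With so few libraries per group, this check cannot say whether the numbers pair samples, and the main fit used no pairing. With the replicate block, Gja5 on ISO day 7 minus ISO day 1 was 0.32 (adjusted p = 0.0732), and the Cacna1h difference between agents was -0.73 (adjusted p = 0.0404). Over all genes, LPS day 7 calls were 1431 (938 higher, 493 lower) with TMM and 2511 (2421 higher, 90 lower) with library totals, whose median change was 0.16. Cacna1g and Cacna1h levels in TPM are limited by varying effective lengths, and Gja5 by 31 to 174 reads per library.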
